A study of Homo sapiens with 12 samples.

Results

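Amino acid transporters are membrane proteins of several solute carrier (SLC) families that move amino acids into cells, out of cells or out of lysosomes. Of 32 transporter genes chosen by name from the SLC38, SLC7, SLC3, SLC1, SLC6, SLC36, SLC43 and SLC15 families, 31 were found among the 48162 Ensembl identifiers of the count tables, and SLC6A14 is not analysed here. The cells were T84, established from a human colon carcinoma and used as a model of the gut lining because it forms polarised monolayers. They had been grown to confluence in 6-well plates, and their medium was then exchanged for Hanks buffered saline, by its usual recipe a solution of salts and glucose without amino acids. The 4 groups of 3 libraries were pH 6.0 for 3 h, pH 7.4 for 3 h, pH 6.0 for 6 h and pH 7.4 for 6 h. All groups were in saline, so time at either pH is time in saline, and the pH 7.4 groups are the control for acid and not cells in culture medium. T84 is a single tumour-derived line, and the labels name neither separate cultures nor batches, so every p-value rests on differences among libraries that may be technical replicates.

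Most free amino acids enter epithelial cells by carriers coupled to sodium (SLC1, SLC6 and SLC38), to protons (such as SLC36A1), or by exchange of one amino acid for another (the SLC7 light chains, which need the glycoprotein heavy chain SLC3A2 or SLC3A1 to reach the membrane). Sodium-coupled carriers such as SLC38A2 load the cell with small neutral amino acids and glutamine. Exchangers such as SLC7A5 spend part of that pool to bring in leucine and other large neutral amino acids. When amino acids run short, cells are known to raise transcription of many of these genes through the factor ATF4, which binds composite C/EBP-ATF elements, and several of them are also known targets of MYC, which binds E-boxes. In the intestine, carriers of the brush border such as SLC6A19 and SLC6A20 take up the products of protein digestion.

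Libraries held 13912532 to 24331032 counts, and 15630 genes passed the filter on low counts. Among all genes tested, 18.8% changed with pH at 3 h and 47% at 6 h, where changed means an adjusted p under 0.05 in edgeR's quasi-likelihood test. All 14 intestinal epithelial markers were detected, with summed levels of 9979 to 15036 CPM (counts scaled to library size), against 8.15 to 33.6 CPM for 11 fibroblast markers, 8.87 to 13.0 CPM for 12 leukocyte markers and 9.73 to 15.0 CPM for 7 endothelial markers. The B cell marker MS4A1 was at 0 in every library, and the highest fibroblast sum, in pH 7.4 library 2 at 6 h, stood apart from the next one of 11.9 CPM. Of the tested markers of other cell types, the leukocyte marker LYZ, an antibacterial lysozyme, was higher at pH 6.0 at 6 h, with group means of 9.25 CPM at pH 6.0 and 6.46 CPM at pH 7.4, as was the endothelial marker ERG; their part in the results was not tested. Of the 31 transporters, 29 were tested. The cystine and dibasic amino acid carrier SLC7A9 and the glutamate carrier SLC1A3 did not pass the filter, with 0 to 3 and 1 to 10 counts per library. In bulk RNA, fewer cells of a kind and less RNA per cell cannot be told apart.

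Promoter sequences were available in RefSeq (GRCh38.p14) for 27 of the 31 genes, with 48 annotated starts, each covered by 250 bases before and 50 after the start. SLC7A2, SLC7A11, SLC3A1 and SLC6A6 had no entry used here. Both strands were searched for TGATGNAA, the core of the C/EBP-ATF element, and for CACGTG, the palindromic E-box; the motifs do not overlap each other. TGATGNAA occurred in 6 of the 48 promoters (12.5%), against 3.62% of 35116 promoters of all genes, and CACGTG in 8 (16.7%), against 7.26%. The start used in T84 cells is not known, several genes have more than one, and a match is a description of letters and not a binding site. By gene, TGATGNAA was found for 3 of the 9 members with an entry that differed at least 2-fold with pH at 6 h and for 3 of the 18 others (SLC3A2, SLC1A5 and SLC1A3), and CACGTG for 2 of 9 (SLC7A5 and SLC43A1) and 6 of 18. The share by gene over all genes was not counted. The percentages above are by promoter and cannot be set against these counts by gene. SLC38A2, SLC38A4, SLC7A5, SLC7A6, SLC6A9 and SLC43A1 differed at least 2-fold and held no TGATGNAA in these windows. The following promoters are shown as examples of 2-fold members with and without it. The first 3 hold TGATGNAA within 7 bases of the annotated start. That of SLC38A2, among the members with the largest pH differences, held neither motif in this window. Each is printed 5′ to 3′ on the strand of its gene, with the match in capitals (TTGCATCA is TGATGCAA read on the other strand).
SLC1A4, chr2:64989149-64989448, plus strand: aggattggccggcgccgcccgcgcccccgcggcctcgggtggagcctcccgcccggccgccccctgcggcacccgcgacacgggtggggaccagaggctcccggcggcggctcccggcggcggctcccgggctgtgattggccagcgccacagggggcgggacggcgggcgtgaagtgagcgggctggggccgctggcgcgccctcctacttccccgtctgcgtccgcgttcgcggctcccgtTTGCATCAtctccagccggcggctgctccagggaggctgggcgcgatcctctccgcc
SLC38A1, chr12:46266467-46266766, minus strand: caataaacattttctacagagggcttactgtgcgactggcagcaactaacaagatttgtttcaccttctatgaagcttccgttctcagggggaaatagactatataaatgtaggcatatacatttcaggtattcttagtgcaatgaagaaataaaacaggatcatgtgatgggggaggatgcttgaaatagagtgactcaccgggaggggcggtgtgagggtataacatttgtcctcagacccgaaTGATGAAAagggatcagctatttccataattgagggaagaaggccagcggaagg
SLC7A1, chr13:29595639-29595938, minus strand: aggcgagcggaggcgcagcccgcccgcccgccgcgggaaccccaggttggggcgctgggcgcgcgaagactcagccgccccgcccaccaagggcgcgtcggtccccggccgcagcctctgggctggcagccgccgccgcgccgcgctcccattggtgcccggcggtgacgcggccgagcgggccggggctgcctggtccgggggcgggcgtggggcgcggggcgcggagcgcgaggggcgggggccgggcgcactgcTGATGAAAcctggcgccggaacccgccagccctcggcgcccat
SLC38A2, chr12:46372724-46373023, minus strand: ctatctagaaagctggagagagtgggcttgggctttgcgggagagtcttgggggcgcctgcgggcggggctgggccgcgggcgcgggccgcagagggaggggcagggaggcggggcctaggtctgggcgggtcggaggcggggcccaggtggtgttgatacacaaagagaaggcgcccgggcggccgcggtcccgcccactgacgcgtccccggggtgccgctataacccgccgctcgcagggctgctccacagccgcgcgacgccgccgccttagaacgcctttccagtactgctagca

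Per length, the summed mRNA of the 31 transporters was lower at pH 6.0 at both times. The authors' RPKM values (read counts scaled to gene length and library size) summed to 828.8, 849.4 and 834.3 at pH 6.0 and to 1144, 1162 and 1139.9 at pH 7.4 after 3 h. After 6 h they summed to 865.3, 919.3 and 845.0 at pH 6.0, against 1579, 1656 and 1663 at pH 7.4. The groups did not overlap at either time. SLC38A2 alone made up 4.89% of the sum at pH 6.0 and 12.1% at pH 7.4 after 3 h, and 5.56% and 16.5% in the same order of pH after 6 h. Without SLC38A2 the sums were still lower at pH 6.0, at 796.6 ± 11.5 RPKM against 1009.7 ± 1.75 RPKM at pH 7.4 after 3 h and 828.0 ± 42.3 RPKM against 1364 ± 46.8 RPKM after 6 h (SD, n = 3 each).

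**Figure D1:**
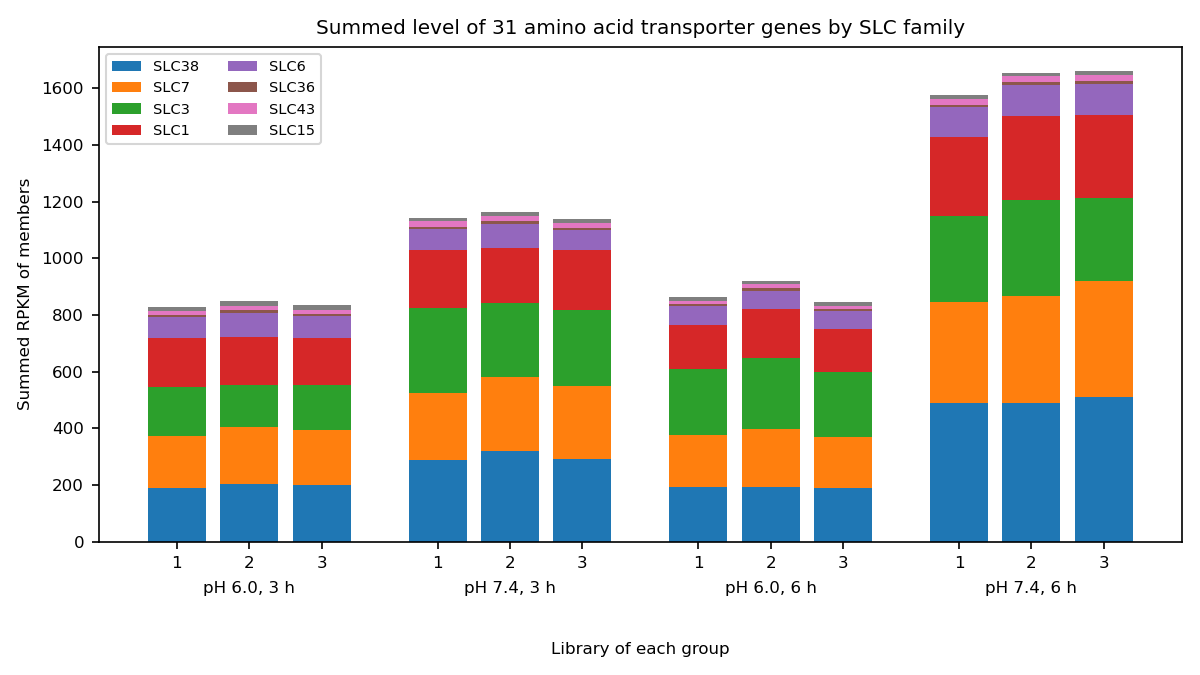
Summed RPKM of the 31 transporter genes in each of the 12 libraries (x axis: library within its group), stacked by SLC family. The pH 6.0 libraries sum to 828.8 to 849.4 RPKM at 3 h and 845.0 to 919.3 at 6 h, all below the pH 7.4 libraries of the same time, and the pH 7.4 bars at 6 h are the tallest.

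The heavy chain SLC3A2 was the most abundant member, with a mean of 235 RPKM over the 12 libraries, followed by the neutral amino acid exchanger SLC1A5 (185 RPKM), SLC7A5 (142 RPKM), SLC38A2 (124 RPKM) and SLC38A1 (99.0 RPKM). These 5 were followed at a distance by the LAT2 exchanger SLC7A8 at 43.5 RPKM. The order moved with condition: by group mean, SLC1A5 ranked above SLC3A2 at pH 6.0 after 3 h and below it in the other groups. By the same measure, SLC38A2 ranked 8 of 31 at pH 6.0 and 4 of 31 at pH 7.4 after 3 h, and 5 of 31 and 2 of 31 after 6 h. The glycine carrier SLC6A9 ranked 20 of 31 at pH 6.0 and 12 of 31 at pH 7.4 after 6 h. At the low end, SLC6A19, a sodium-coupled neutral amino acid carrier of the intestinal brush border, averaged 0.404 RPKM and SLC36A4 0.360 RPKM.

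At pH 6.0, more of the tested transporters fell than rose, and the falls were more numerous at 6 h and, for all those called at both times except SLC3A2, larger. At 3 h, 10 of 29 fell, against 9.26% of all genes tested, and 2 rose, against 9.53%. At 6 h, 18 of 29 fell, against 25.1% of all genes, and 3 rose, against 21.9%. The 10 that fell at 3 h were SLC38A2, SLC7A1, SLC7A5, SLC7A6, SLC7A11, SLC3A2, SLC1A4, SLC1A5, SLC6A9 and SLC43A1. Each was also among the 18 that fell at 6 h. Both times were tested in 1 fit, and the share of all genes lower at both times was not counted. The 8 called lower at 6 h but not at 3 h were SLC38A1, SLC38A4, SLC38A7, SLC38A9, SLC7A2, SLC3A1, SLC6A20 and SLC36A4. Median log2 fold changes of the 29 members were -0.07 at 3 h and -0.52 at 6 h, and those of all genes tested were 0.00 at both times.

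A difference of at least 2-fold was called for 2 members at 3 h, SLC38A2 and SLC6A9, where 2.87% of all genes reached it, and for 11 members at 6 h, where 9.4% did. All of these were lower at pH 6.0. With a correction for gene length, chosen after seeing the data, all 11 were still called lower at 6 h and 8 still by at least 2-fold, the exceptions being SLC38A1 (log2 -0.74), SLC7A2 (-0.96) and SLC1A4 (just under 2-fold). In CPM, no pH 6.0 library fell within the range of the pH 7.4 libraries for 13 of 29 members at 3 h (33% of all genes) and for 25 of 29 at 6 h (56.6%). Neither a higher nor a lower call was made at either time for 7 members: the glutamate carrier SLC1A1, the proton-coupled carrier SLC36A1, SLC38A6, SLC38A10, SLC7A7, SLC7A8 and the lysosomal histidine and peptide carrier SLC15A4. For these 7 the 95% intervals of the log2 fold change at 6 h were widest for SLC38A6 (-0.02 to 1.03) and narrowest for SLC38A10 (-0.12 to 0.23).

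**Figure D2:**
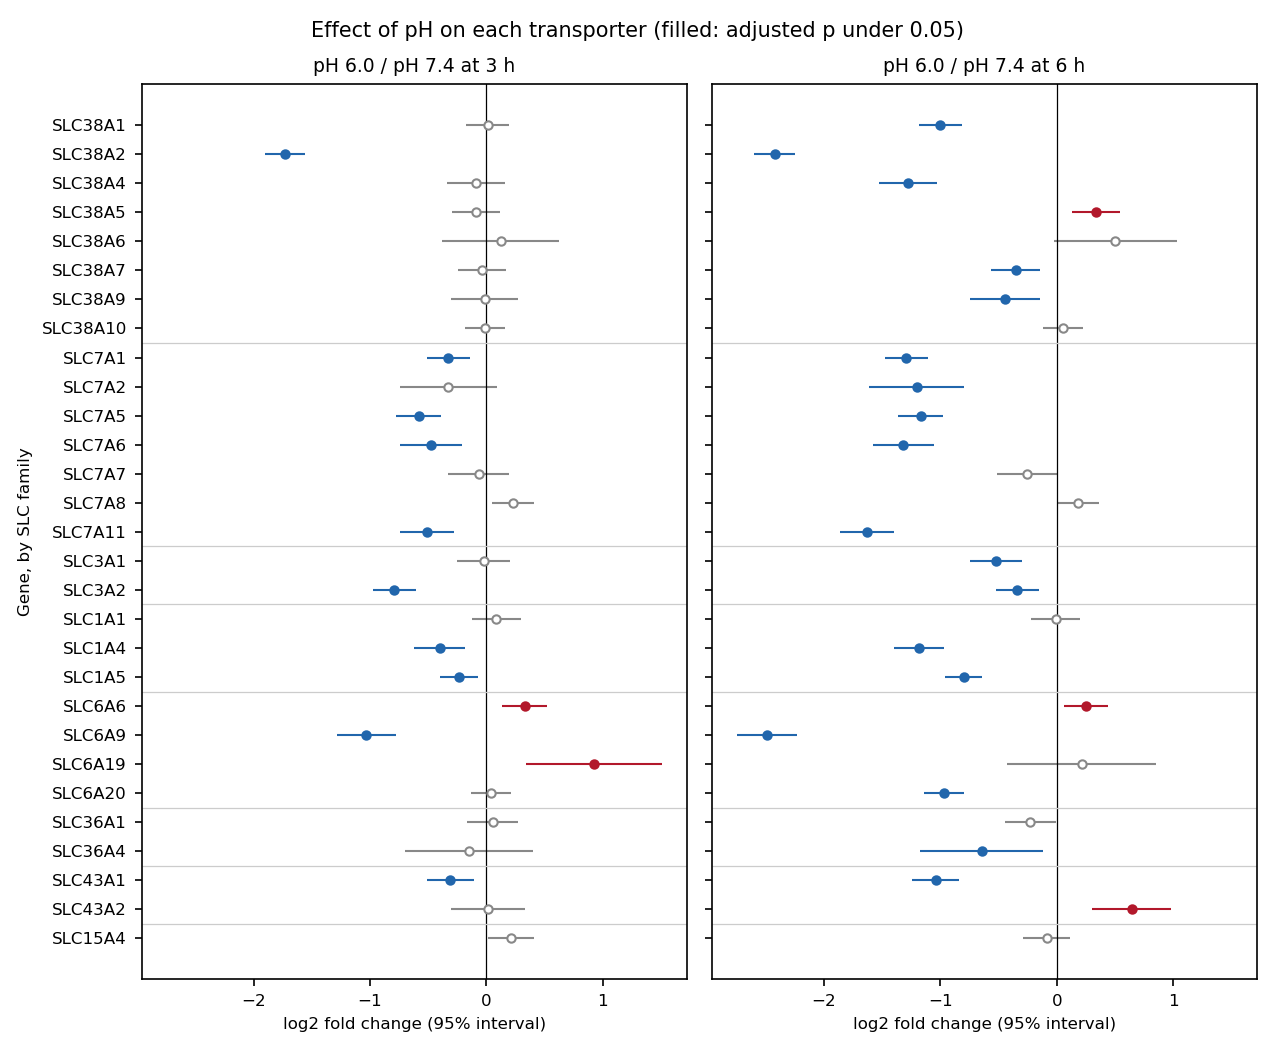
Log2 fold change of pH 6.0 over pH 7.4 for the 29 tested transporters, by SLC family, at 3 h (left) and 6 h (right). Points are edgeR estimates with 95% intervals, filled blue where lower and filled red where higher at an adjusted p under 0.05; 10 are blue at 3 h and 18 at 6 h.

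The SLC38 family couples uptake of small neutral amino acids to sodium. SLC38A2 (SNAT2, ENSG00000134294) is the carrier of this family known to be induced most strongly by lack of amino acids. At 3 h it had 196, 189.6 and 206 CPM at pH 6.0, against 629.9, 696 and 638 CPM at pH 7.4. At 6 h it had 253, 225 and 267 CPM at pH 6.0, against 1333, 1311 and 1347 CPM at pH 7.4. The groups were far apart at both times, and the highest pH 6.0 library stayed below the lowest pH 7.4 library of either time. The log2 fold changes were -1.73 ± 0.08 (SE; adjusted p = 1.3e-12) at 3 h and -2.42 ± 0.08 (adjusted p = 9.71e-16) at 6 h, that is 3.32-fold and 5.36-fold lower at pH 6.0.

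SLC38A1 (SNAT1, ENSG00000111371), the other abundant family member, separated later. Its 3 h libraries held 590.1, 696 and 659 CPM at pH 6.0 and 587, 729 and 613 CPM at pH 7.4, which overlapped (log2 fold change 0.01 ± 0.09, adjusted p = 0.944). After 6 h it stood at 663, 646 and 602 CPM at pH 6.0, against 1232, 1267 and 1326 CPM at pH 7.4. Every pH 7.4 library at 6 h was above every other library, and the log2 fold change was -1.001 ± 0.09 (adjusted p = 6.84e-09). SLC38A4 (SNAT4, ENSG00000139209), known chiefly from liver, showed the same order at a lower level. It had 14.8, 17.3 and 19.0 CPM at pH 6.0 and 36.8, 44.0 and 43.2 CPM at pH 7.4 after 6 h, without overlap (log2 fold change -1.28 ± 0.12, adjusted p = 1.84e-08). At 3 h its libraries overlapped, at 22.1 ± 3.06 CPM at pH 6.0 and 23.4 ± 2.76 CPM at pH 7.4 (SD, n = 3 each). The promoter of SLC38A1 printed above is that of only one of its annotated starts.

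The remaining SLC38 members differed less. SLC38A5 (SNAT5), a glutamine carrier that exchanges protons, was higher at pH 6.0 at 6 h, with 50.9 ± 2.77 CPM at pH 6.0 and 40.2 ± 3.10 CPM at pH 7.4 (log2 fold change 0.34 ± 0.10, adjusted p = 0.00732). The lysosomal carriers SLC38A7 (log2 fold change -0.35 ± 0.10) and SLC38A9 (-0.44 ± 0.14), whose product is a sensor of lysosomal arginine for the kinase complex mTORC1, were lower at 6 h. The SLC38A7 call was lost without pH 6.0 library 3 at 6 h (adjusted p = 0.0695), and that of SLC38A9 without that library or without pH 7.4 library 3 at 6 h (adjusted p = 0.0785 to 0.0955). SLC38A6 and SLC38A10 did not pass the test at either time.

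In the SLC7 family, 4 of 7 tested members fell at 3 h, against 9.26% of all genes, and 5 at 6 h, against 25.1%. SLC7A1 (CAT1, ENSG00000139514) carries arginine and lysine. It had 193, 216 and 211 CPM at pH 6.0 and 236, 283 and 258 CPM at pH 7.4 after 3 h. After 6 h it had 195, 232 and 200.2 CPM at pH 6.0 and 475, 502 and 559 CPM at pH 7.4. The groups did not overlap at either time, and the gap was wider at 6 h (log2 fold changes -0.33 ± 0.09 and -1.29 ± 0.09, adjusted p = 0.014 and 1.31e-10). The call at 3 h was lost without pH 7.4 library 2 of that time (adjusted p = 0.0504). SLC7A2 (CAT2, ENSG00000003989), the related cationic carrier, was scarce, with 7.20, 5.21 and 8.05 CPM at pH 6.0 against 15.2, 14.4 and 17.2 CPM at pH 7.4 after 6 h. Those groups did not overlap (log2 fold change -1.20 ± 0.19, adjusted p = 3.79e-05), whereas the 3 h groups did, at 6.78 ± 2.23 CPM at pH 6.0 and 8.37 ± 1.56 CPM at pH 7.4 (SD, n = 3 each).

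Among the light chains that pair with SLC3A2, SLC7A5 (LAT1, ENSG00000103257) imports leucine and other large neutral amino acids. Its 3 h libraries held 457, 425 and 447 CPM at pH 6.0, against 608, 645 and 738 CPM at pH 7.4. Its 6 h libraries held 436, 511 and 412 CPM at pH 6.0, against 932, 1035 and 1085 CPM at pH 7.4. All pH 6.0 libraries were below all pH 7.4 libraries of both times (log2 fold changes -0.58 ± 0.09 and -1.17 ± 0.09, adjusted p = 0.000149 and 1.17e-09). The annotated pseudogene SLC7A5P1 held 33 to 97 counts per library, against 6034 to 19266 for SLC7A5, and how reads matching both were counted is not given. SLC7A8 (LAT2), with a related substrate range, did not pass the test (log2 fold changes 0.23 ± 0.09 and 0.18 ± 0.09, adjusted p = 0.0723 and 0.0954).

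SLC7A11 (xCT, ENSG00000151012) imports cystine in exchange for glutamate and so feeds glutathione synthesis. At 3 h it had 57.3, 75.1 and 75.4 CPM at pH 6.0, against 91.8, 99.3 and 104 CPM at pH 7.4. At 6 h it had 112, 108 and 92.2 CPM at pH 6.0, against 314, 282 and 368 CPM at pH 7.4. Neither pair of groups overlapped, and the pH 7.4 libraries at 6 h were well above all others (log2 fold changes -0.51 ± 0.11 and -1.63 ± 0.11, adjusted p = 0.00355 and 3.31e-10). Its antisense neighbour SLC7A11-AS1, which shares 8.97% of the gene's exonic bases, went the other way, with means of 9.09 CPM at pH 6.0 and 2.55 CPM at pH 7.4 after 3 h and 22.3 CPM and 7.69 CPM after 6 h (log2 fold changes 1.85 ± 0.22 and 1.54 ± 0.19). It was looked at after the values of SLC7A11 had been seen. Strand use in the counting is not given in the sources used here, so reads from the overlap cannot be told apart.

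SLC7A6 (y+LAT2, ENSG00000103064), which exchanges arginine for glutamine, had 17.8, 23.1 and 22.0 CPM at pH 6.0 and 27.9, 35.7 and 23.1 CPM at pH 7.4 after 3 h. Those groups nearly touched, and the call (log2 fold change -0.47 ± 0.13, adjusted p = 0.0132) was lost without pH 7.4 library 2 (adjusted p = 0.0777) and in a fit of the 3 h groups alone (0.0543). At 6 h the values were 19.2, 20.2 and 20.3 CPM at pH 6.0 and 50.01, 51.8 and 46.8 CPM at pH 7.4, clearly apart (log2 fold change -1.32 ± 0.13, adjusted p = 2.53e-08). Of its exonic bases 55.6% are shared with other genes, among them SLC7A6OS on the opposite strand, which averaged 8.19 CPM at pH 6.0 and 10.4 CPM at pH 7.4 after 6 h and was not called (log2 fold change -0.34 ± 0.14, adjusted p = 0.0527). SLC7A7 (y+LAT1), its close relative, was not called at either time.

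The heavy chain SLC3A2 (4F2hc or CD98, ENSG00000168003) had a smaller pH difference at 6 h than at 3 h, whereas that of its light chains SLC7A5, SLC7A6 and SLC7A11 was larger. It had 389.8, 324 and 347 CPM at pH 6.0, against 665, 559.5 and 611 CPM at pH 7.4 after 3 h. After 6 h it had 561, 598 and 550.3 CPM at pH 6.0, against 705, 786 and 670.5 CPM at pH 7.4. The groups did not overlap at either time, but the gap had narrowed (log2 fold changes -0.79 ± 0.09 and -0.34 ± 0.09, adjusted p = 1.8e-06 and 0.00328). The difference between the times was 0.45 ± 0.13 (adjusted p = 0.00967), where SLC7A5 had -0.58 ± 0.13, SLC7A6 -0.84 ± 0.18 and SLC7A11 -1.12 ± 0.16; that of SLC7A7 (-0.19 ± 0.18) and SLC7A8 (-0.05 ± 0.12) was not called. Per length, the ratio of SLC3A2 to the summed RPKM of its 5 light chains SLC7A5, SLC7A6, SLC7A7, SLC7A8 and SLC7A11 was 1.04, 0.819 and 0.907 at pH 6.0 and 1.45, 1.13 and 1.15 at pH 7.4 after 3 h. After 6 h it was 1.42, 1.40 and 1.42 at pH 6.0 and 0.990, 1.04 and 0.834 at pH 7.4. The order of the pH groups in this ratio was thus opposite at the 2 times, without overlap. These are mRNA ratios, and protein was not measured.

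SLC3A1, the heavy chain of the cystine carrier SLC7A9, was lower at pH 6.0 at 6 h, with 31.04 ± 1.97 CPM at pH 6.0 and 44.5 ± 3.05 CPM at pH 7.4 (log2 fold change -0.52 ± 0.11, adjusted p = 0.000415). It shares 54.6% of its exonic bases with other genes, among them PREPL, which averaged 39.4 CPM at pH 6.0 and 37.6 CPM at pH 7.4 after 6 h and was not called there (adjusted p = 0.654).

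**Figure D3:**
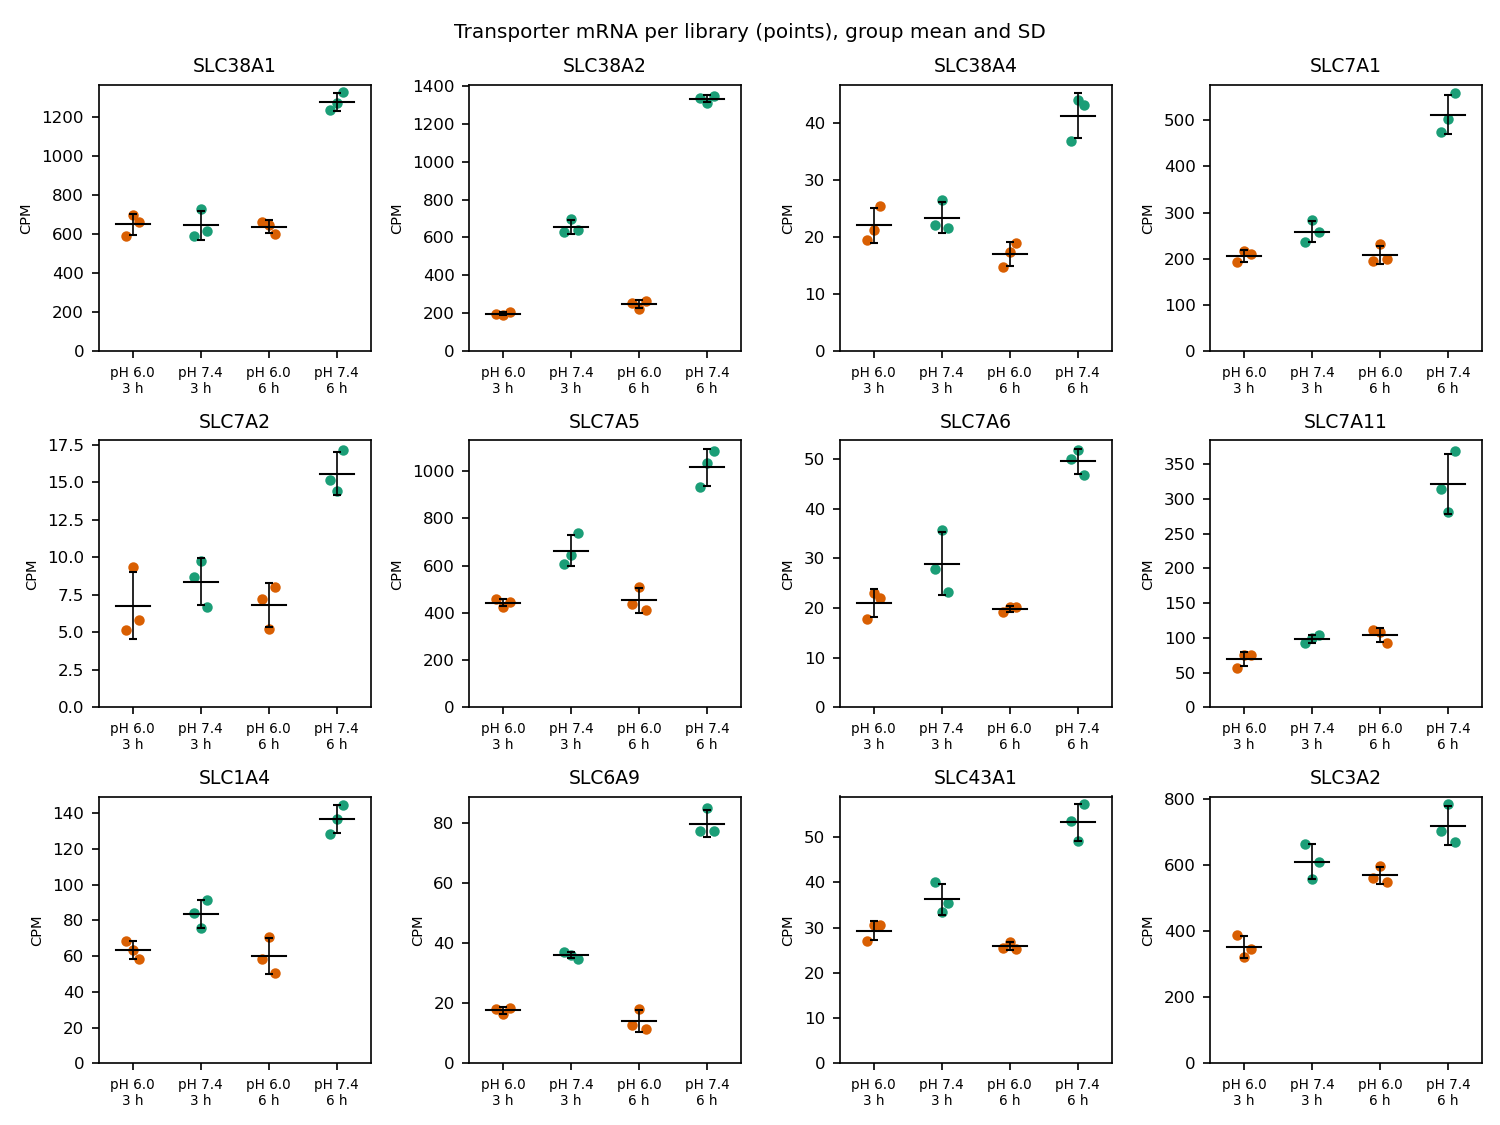
CPM (y axis, from 0) of the 11 transporters that differed at least 2-fold with pH at 6 h and of the heavy chain SLC3A2 in every library. Points are libraries, bars the group mean and SD; pH 6.0 is orange and pH 7.4 green, and SLC38A2 averages 248 CPM at pH 6.0 and 1330.1 CPM at pH 7.4 after 6 h.

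Both sodium-dependent neutral amino acid exchangers of the SLC1 family were lower at pH 6.0. SLC1A4 (ASCT1, ENSG00000115902), which carries serine, alanine and cysteine, had 68.5, 63.4 and 58.2 CPM at pH 6.0 and 84.1, 75.7 and 91.4 CPM at pH 7.4 after 3 h. At 6 h it had 58.6, 71.0 and 50.6 CPM at pH 6.0 and 129, 137 and 145 CPM at pH 7.4. There was no overlap at either time, and the 6 h groups were farther apart (log2 fold changes -0.40 ± 0.10 and -1.18 ± 0.10, adjusted p = 0.0102 and 6.23e-09). The 3 h call was lost without pH 6.0 library 3 or pH 7.4 library 3 of that time (adjusted p = 0.0645 to 0.0676). SLC1A5 (ASCT2), the main glutamine importer of many tumour lines, had 433 ± 8.73 CPM at pH 6.0 and 509 ± 35.5 CPM at pH 7.4 after 3 h and 436 ± 25.8 CPM at pH 6.0 and 758 ± 24.0 CPM at pH 7.4 after 6 h (SD, n = 3 each). Its log2 fold changes were -0.23 ± 0.08 (adjusted p = 0.0373) and -0.80 ± 0.08 (adjusted p = 2.35e-08). The 3 h call was lost without any of pH 6.0 libraries 2 and 3, pH 7.4 libraries 1 and 3 of that time or pH 6.0 library 1 of 6 h (adjusted p = 0.0508 to 0.148), in a fit of the 3 h groups alone (0.105) and with the length correction (0.0963). SLC1A5 shares 23.8% of its exonic bases with other genes. The glutamate carrier SLC1A1 did not pass the test.

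The SLC6 family held the largest fold change among the members as well as members that rose. SLC6A9 (GlyT1, ENSG00000196517) takes up glycine with sodium and chloride. At 3 h it had 18.1, 16.4 and 18.4 CPM at pH 6.0, against 37.1, 36.3 and 34.9 CPM at pH 7.4. At 6 h it had 12.7, 18.2 and 11.3 CPM at pH 6.0, against 77.3, 85.3 and 77.3 CPM at pH 7.4. The groups were widely separated at both times (log2 fold changes -1.03 ± 0.12 and -2.49 ± 0.12, adjusted p = 3.29e-06 and 4.1e-13), and at 6 h the level was 5.62-fold lower at pH 6.0. The overlapping gene CCDC24 shares 7.83% of its exonic bases, stood at 2.85 to 3.08 CPM by group mean and was not called.

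SLC6A20 (SIT1), the brush-border carrier of proline, was flat at 3 h, with 153 ± 9.68 CPM at pH 6.0 and 148 ± 3.84 CPM at pH 7.4, and lower at 6 h, with 152 ± 16.3 CPM at pH 6.0 and 297 ± 15.3 CPM at pH 7.4 (SD, n = 3 each; log2 fold change -0.96 ± 0.08, adjusted p = 3.6e-09). SLC6A6, the taurine carrier, was higher at pH 6.0, with 277 ± 22.8 CPM at pH 6.0 and 220.2 ± 29.1 CPM at pH 7.4 after 3 h and 223 ± 17.2 CPM at pH 6.0 and 187 ± 9.24 CPM at pH 7.4 after 6 h (log2 fold changes 0.33 ± 0.09 and 0.25 ± 0.09, adjusted p = 0.0154 and 0.03). Both calls were fragile: that at 3 h was lost without pH 6.0 library 2 or pH 7.4 library 1 or 3 (adjusted p = 0.073 to 0.0957), and that at 6 h without pH 6.0 library 3 or pH 7.4 library 2 or 3 (0.0571 to 0.113) or with library totals in place of TMM factors (0.0855). SLC6A19 was higher at pH 6.0 at 3 h, with 3.82, 2.81 and 3.19 CPM against 1.22, 2.04 and 1.996 CPM at pH 7.4 (log2 fold change 0.93 ± 0.28, adjusted p = 0.0247). This rests on few reads and was lost without pH 6.0 library 1 or 3 or pH 7.4 library 1 (adjusted p = 0.0644 to 0.147). At 6 h it was not called (0.21 ± 0.31).

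The sodium-independent carriers of the SLC43 family for large neutral amino acids split. SLC43A1 (LAT3, ENSG00000149150) had 27.0, 30.5 and 30.5 CPM at pH 6.0 and 40.1, 33.4 and 35.4 CPM at pH 7.4 after 3 h. After 6 h it had 25.5, 26.8 and 25.3 CPM at pH 6.0 and 53.6, 49.1 and 57.2 CPM at pH 7.4. The groups did not overlap at either time, though at 3 h they were close (log2 fold changes -0.31 ± 0.10 and -1.04 ± 0.10, adjusted p = 0.0284 and 1.24e-08). The 3 h call was lost without any of the pH 6.0 libraries or pH 7.4 library 1 or 3 of that time (adjusted p = 0.0504 to 0.163), in a fit of the 3 h groups alone (0.0737) and with the length correction (0.114). SLC43A2 (LAT4) was higher at pH 6.0 at 6 h, with 11.5 ± 2.93 CPM at pH 6.0 and 7.40 ± 0.701 CPM at pH 7.4 (log2 fold change 0.64 ± 0.16, adjusted p = 0.00241). In the SLC36 family, the proton-coupled carrier SLC36A1 (PAT1) did not pass the test at either time. SLC36A4 (PAT4) was at 1.49, 2.43 and 1.84 CPM at pH 6.0 and 3.66, 2.69 and 2.80 CPM at pH 7.4 after 6 h (log2 fold change -0.65 ± 0.25, adjusted p = 0.0414), a call on few reads that did not hold in DESeq2 (adjusted p = 0.091), without the filter (0.0837) or with the length correction (0.159) and was lost without any of 6 libraries: pH 6.0 library 1 or 3 or pH 7.4 library 1 or 3 of 6 h, or pH 6.0 library 1 or pH 7.4 library 3 of 3 h (0.0582 to 0.194).

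With time in saline, the share of transporters called at pH 6.0 was near that of all genes, and more rose at pH 7.4. At pH 6.0, 3 of 29 were higher at 6 h than at 3 h, against 8.64% of all genes tested, and 3 lower, against 10.9%. At pH 7.4, 16 of 29 were higher, against 17.2% of all genes, and SLC43A2 was lower, where 14.4% of all genes were. The 6 h and 3 h libraries did not overlap in CPM for 9 of 29 members at pH 6.0 (35.6% of all genes) and for 19 of 29 at pH 7.4 (43.4%). Median log2 fold changes of the members were -0.03 at pH 6.0 and 0.47 at pH 7.4, and those of all genes -0.02 at both. The comparisons of time use the same libraries as the comparisons of pH, so these are not separate sources of evidence.

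At pH 6.0 the members that rose with time were SLC3A2 (log2 fold change 0.69 ± 0.09, adjusted p = 6.09e-06), SLC7A11 (0.59 ± 0.11, adjusted p = 0.000825) and SLC38A2 (0.33 ± 0.08, adjusted p = 0.00558). SLC38A1, SLC7A1, SLC7A2, SLC7A5 and SLC6A20, which rose by 0.62 to 1.00 at pH 7.4, had log2 changes between -0.03 and 0.03 here and were not called; the 95% interval of SLC38A1 was -0.21 to 0.16, that of SLC7A1 -0.17 to 0.20 and that of the scarce SLC7A2, the widest, -0.43 to 0.45. The lower calls were SLC38A4 (-0.37 ± 0.13), SLC6A6 (-0.31 ± 0.09) and the scarce SLC6A19 (-0.88 ± 0.29). All of these were lost without pH 6.0 library 1 of 6 h, and each also without others: SLC38A4 without pH 6.0 library 2 or 3 of 3 h or 2 of 6 h or pH 7.4 library 3 of 3 h or 1 or 2 of 6 h (adjusted p = 0.0505 to 0.24), SLC6A6 without pH 6.0 library 2 of 3 h or 2 of 6 h (0.0847 to 0.115) and SLC6A19 without pH 6.0 library 1 or 3 of 3 h or 3 of 6 h (0.0777 to 0.158). In DESeq2 the adjusted p was 0.0506 for SLC38A4 and 0.0519 for SLC6A19.

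At pH 7.4 a rise of at least 2-fold was called for SLC7A11 (3.26-fold, log2 1.71 ± 0.11), SLC6A9 (1.15 ± 0.11), SLC38A2 (1.02 ± 0.08) and SLC6A20 (1.00 ± 0.08), where 2.35% of all genes reached that size. SLC38A1 (0.99 ± 0.09), SLC7A1 (0.98 ± 0.09), SLC7A2 (0.89 ± 0.19) and SLC38A4 (0.82 ± 0.12) rose almost as much. SLC7A5, SLC7A6, SLC3A1, SLC1A4, SLC1A5 and SLC43A1 rose by 0.47 to 0.77 on the log2 scale. The calls of SLC3A2 (0.24 ± 0.09, adjusted p = 0.0456) and SLC36A4 (0.65 ± 0.25, adjusted p = 0.0495) were marginal. That of SLC36A4 was lost without any 1 of the 12 libraries, and that of SLC3A2 without any of 8: pH 7.4 libraries 2 and 3 of 3 h and 1 and 2 of 6 h, pH 6.0 library 3 of 3 h and all pH 6.0 libraries of 6 h (adjusted p = 0.0662 to 0.208).

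**Figure D4:**
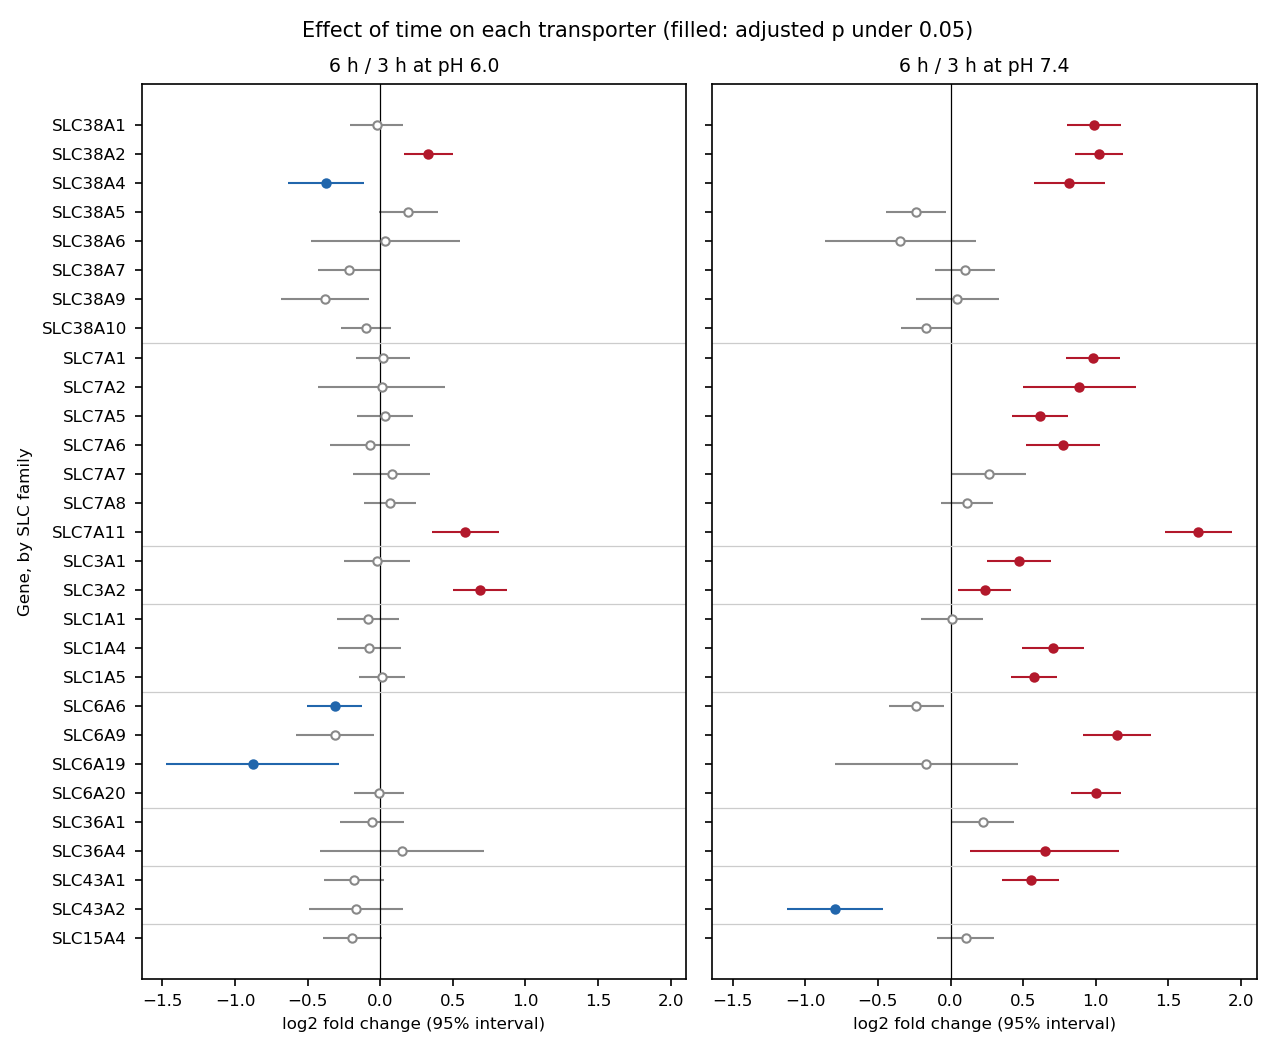
Log2 fold change of 6 h over 3 h for the 29 tested transporters, by SLC family, at pH 6.0 (left) and pH 7.4 (right). Points are edgeR estimates with 95% intervals, filled red where higher and filled blue where lower at an adjusted p under 0.05; 16 points are red at pH 7.4 and 3 at pH 6.0.

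The difference between these time courses, which is also the difference between the pH effects at 6 h and 3 h, was tested directly as an interaction. It was negative for 14 of 29 members, against 16.3% of all genes, and positive for SLC3A2, SLC38A5 and SLC43A2, where 13.1% of all genes were. It was at least 2-fold in size for 5 members, against 4.7% of all genes. These 5, all negative, were SLC6A9 (-1.46 ± 0.17, adjusted p = 4.36e-06), SLC38A4 (-1.19 ± 0.17, adjusted p = 4.02e-05), SLC7A11 (-1.12 ± 0.16, adjusted p = 4.1e-05), SLC38A1 (-1.01 ± 0.13, adjusted p = 8e-06) and SLC6A20 (-1.01 ± 0.12, adjusted p = 3.45e-06). SLC38A2 had -0.69 ± 0.11 (adjusted p = 0.000153), on top of its lower level at pH 6.0 at 3 h.

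Other genes of amino acid handling were counted in lists that were not chosen by how they moved in these libraries, although earlier results of these data were known. Of 9 other amino acid transporters tested, 2 fell and 0 rose at 3 h, against 9.26% and 9.53% of all genes. At 6 h, 3 fell and 1 rose, against 25.1% and 21.9% of all genes. The lysosomal cystine exporter CTNS fell (log2 fold change -1.35 ± 0.16 at 6 h, with 5.64 ± 0.345 CPM at pH 6.0 and 14.4 ± 2.25 CPM at pH 7.4; SD, n = 3), as did the lysosomal cationic carrier SLC66A1 (-0.67 ± 0.13) and the lysosomal peptide and histidine carrier SLC15A3 (-0.41 ± 0.11). The creatine carrier SLC6A8 rose (0.79 ± 0.18). Of 10 mitochondrial amino acid carriers tested, 6 rose and 3 fell at 6 h, where 21.9% of all genes rose and 25.1% fell. Those called included the serine carrier SFXN1 (0.55 ± 0.08) and the aspartate-glutamate carriers SLC25A12 (0.92 ± 0.16) and SLC25A13 (-0.59 ± 0.09), of which SLC25A13 was lower. At 3 h, 1 rose and 2 fell, against 9.53% and 9.26% of all genes.

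Of 19 genes known to respond to amino acid shortage, 10 fell and 2 rose at pH 6.0 at 3 h, against 9.26% and 9.53% of all genes, and 11 fell and 3 rose at 6 h, against 25.1% and 21.9%. ATF4, the factor that drives that response, had 228.0 ± 17.9 CPM at pH 6.0 and 348.9 ± 21.4 CPM at pH 7.4 after 3 h, and 316.0 ± 21.3 CPM and 359.3 ± 21.8 CPM after 6 h (SD, n = 3 each). It was lower at 3 h (log2 fold change -0.61 ± 0.08, adjusted p = 1.91e-05) and not called at 6 h (-0.19 ± 0.08, adjusted p = 0.0695). Asparagine synthetase ASNS, a target of ATF4, fell at both times (-0.55 ± 0.08 and -0.92 ± 0.08), as did STC2 (-0.91 ± 0.08 at 6 h). The stress genes ATF3 (1.01 ± 0.09 at 3 h and 1.96 ± 0.09 at 6 h) and PPP1R15A (1.26 ± 0.08 at 6 h) were higher at pH 6.0. DDIT3, named after its values were seen, was lower at 3 h (-0.66 ± 0.12) and higher at 6 h (0.63 ± 0.11). With time in saline, 11 of these 19 genes rose at pH 6.0, against 8.64% of all genes, and 10 at pH 7.4, against 17.2%.

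Among 22 genes of amino acid synthesis, 6 fell and 1 rose at 3 h, against 9.26% and 9.53% of all genes. At 6 h, 8 fell and 5 rose, where 25.1% of all genes fell and 21.9% rose. The 4 genes with the smallest p at 6 h all fell. They were the serine synthesis enzyme PSAT1 (-1.41 ± 0.08), cystathionine gamma-lyase CTH (-1.29 ± 0.10), which makes cysteine, the alanine transaminase GPT2 (-0.98 ± 0.08) and the mitochondrial folate enzyme MTHFD2 (-0.93 ± 0.08). The next by p, ALDH18A1, named after its values were seen, was among the 5 that rose (0.97 ± 0.09). Of 27 genes that pass amino acid supply on to mTORC1, 7 fell and 0 rose at 3 h, against 9.26% and 9.53% of all genes. At 6 h, 9 fell and 6 rose, against 25.1% and 21.9% of all genes, so the share that rose was near that of all genes. Those lower at 6 h included FLCN (-0.90 ± 0.09), FNIP2 (-0.92 ± 0.10) and RRAGC (-0.82 ± 0.10). LAMTOR1 to LAMTOR5, named after their values were seen, are the subunits of the Ragulator complex that anchors the Rag GTPases to the lysosome. They were among the 6 genes of this list that rose at 6 h, with log2 fold changes between 0.35 (LAMTOR4) and 0.70 (LAMTOR2). At 3 h LAMTOR4 was lower at pH 6.0 (-0.51 ± 0.12). The others were not called at 3 h, with -0.27 for LAMTOR1, -0.25 for LAMTOR2, 0.21 for LAMTOR3 and -0.40 for LAMTOR5. MYC was lower at both times, with 60.3 ± 10.7 CPM at pH 6.0 against 193.4 ± 7.43 CPM at pH 7.4 after 3 h and 24.5 ± 1.65 CPM against 200.5 ± 3.58 CPM after 6 h (SD, n = 3 each; log2 fold changes -1.68 ± 0.10 and -3.03 ± 0.10). Whether ATF4 or MYC has a part in the transporter values was not tested.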

How the data were processed

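RNA of 12 T84 libraries was sequenced. The deposited tables hold, for each Ensembl gene, a read count by the authors and the RPKM they derived from it; per the submitters' processing notes STAR and CASAVA were used with build hg19. Their versions, the annotation, the counting program and its strand setting were not given in the sources used here. Counts were tested with edgeR 4.0.16 (R 4.3.3): robust quasi-likelihood F test, TMM factors, default expression filter, 1 fit of 4 groups of 3 libraries, 8 residual degrees of freedom, Benjamini-Hochberg adjustment over 15630 genes, threshold 0.05. The standard error is the log2 fold change divided by the root of F. CPM uses TMM-scaled totals; RPKM served for levels between genes. The procedure was tested on simulated counts. Symbols came from current gene names, or from GENCODE 29 where these held none, and exon overlap came from GENCODE 29. Members and lists were chosen with earlier results of these data known. Libraries are given for members called with at least 2-fold pH differences; up to 4 called genes per other list are named by smallest p, plus ATF4, ASNS and MYC; some items that these rules name are not reported here. Alternatives were DESeq2 1.42.0, other scaling factors, no filter, fewer groups, a replicate term, each library left out and, chosen after seeing the data, a gene length correction.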

Additional observations from a re-analysis of the deposited data

Results flagged for a closer look

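The pH effect at 6 h differed from that at 3 h, by the interaction test in edgeR at an adjusted p under 0.05, for 17 transporters. On the log2 scale, as the effect at 6 h minus that at 3 h, it was more negative at 6 h for SLC6A9 (-1.46), SLC38A4 (-1.19), SLC7A11 (-1.12), SLC38A1 (-1.01), SLC6A20 (-1.01), SLC7A1 (-0.97), SLC7A2 (-0.88), SLC7A6 (-0.84), SLC1A4 (-0.78), SLC43A1 (-0.73), SLC38A2 (-0.69), SLC7A5 (-0.58), SLC1A5 (-0.56) and SLC3A1 (-0.50). It was more positive for SLC43A2 (0.63), SLC3A2 (0.45) and SLC38A5 (0.43). Leaving out single libraries ended the calls of SLC38A5 and SLC43A2 (5 libraries each; adjusted p up to 0.0714 and 0.133), SLC3A1 (5; up to 0.0709) and SLC7A2 (4; up to 0.102). With the gene length correction, chosen after seeing the data, the value of SLC7A11 was -0.65 and still called, and the calls of SLC7A2 (-0.52), SLC38A5 (0.30) and SLC43A2 (0.59) were lost.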

How the results depend on the processing

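None of the 73 called member values changed direction in the alternatives run, and 53 were called in all of them; the causes of the changes below were not tested. Members lower with time at pH 6.0 numbered 3, and 7 with library totals and 1 in DESeq2; those lower with time at pH 7.4 numbered 1, and 4 with library totals, 2 without filter and 3 with the length correction. With the length correction 4 members rather than 2 rose with pH at 3 h, and 1 rather than 3 had a positive interaction. Leaving out 1 library gave 0 to 3 members higher and 7 to 10 lower at pH 6.0 at 3 h, with 0 without pH 7.4 library 1. It gave 2 to 4 and 15 to 18 at 6 h, 3 and 0 to 3 for time at pH 6.0, 14 to 16 and 1 to 3 for time at pH 7.4, and 1 to 3 and 12 to 15 for the interaction. All genes changed numbered 1648 to 3617 (2937 in all libraries) for pH at 3 h, falling to 1649 and 1648 without pH 6.0 library 2 and 3 and to 1661 without pH 7.4 library 1. They numbered 6203 to 7566 for pH at 6 h, 1915 to 3408 for time at pH 6.0 (1915 without pH 6.0 library 3 of 3 h, 3050 in all), 3309 to 5211 for time at pH 7.4 and 3457 to 5136 for the interaction. Library totals made 1194 genes higher and 1752 lower for pH at 3 h, against 1489 and 1448 with TMM, 773 and 2499 against 1351 and 1699 for time at pH 6.0, and 2093 and 3179 against 2695 and 2247 for time at pH 7.4. Deviations of libraries with equal replicate numbers had correlations from -0.05 to 0.23, and not every library correlated best with its own number. In the comparisons of pH, replicates 1 and 2 did so at both times and replicate 3 did not. Whether libraries were paired within a time cannot be told from this. With a replicate block, 10 members fell and 2 rose with pH at 3 h, as without it, and of the members' calls 1 was lost, that of SLC36A4 with time at pH 7.4 (adjusted p = 0.0558).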
